A study of Mus musculus with 6 samples.

Results

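The proteasome genes described here were the 50 genes of the deposited table, out of 53801, whose symbols run from the Psma to the Psmg series, with pseudogenes named as such left out. The rule used gene names and no measured values, and all 50 passed the filter of at least 10 counts over the 6 samples, which 23975 genes of the table passed. RNA came from one hemisphere of the brain of adult C57BL/6 mice about 70 weeks of age, 3 of them Bahd1-/- (Bahd1-KO) and 3 Bahd1+/+ (Bahd1-WT), with no further treatment in the labels. The knock-out is present in every cell type from conception, and part of the mice without Bahd1 die around birth, so the adults sampled were survivors. The tissue was bulk, with all cell types mixed. The question was how brain gene expression differs without BAHD1, a heterochromatin factor.

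The proteasome degrades most of the short-lived and damaged proteins of a cell. Its barrel-shaped core is built from rings of alpha subunits (Psma genes), which gate the entrance, and rings of beta subunits (Psmb genes), of which Psmb5, Psmb6 and Psmb7 carry the cutting sites. A cap recognises proteins tagged with ubiquitin, unfolds them with a ring of ATPases (Psmc genes) and removes the tag with the help of its other subunits (most Psmd genes). Immune signals induce Psmb8, Psmb9 and Psmb10, which take the places of Psmb5, Psmb6 and Psmb7 in newly made cores, and this immunoproteasome favours peptides for display on class I molecules. Other activators (Psme genes) can replace the cap, and dedicated chaperones assemble the particle. In the brain the proteasome also takes part in the turnover of synaptic proteins, and neurons hold little immunoproteasome.

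The libraries held 42297150 to 93557948 counts each, and the proteasome genes took 0.304 to 0.379% of them. The counts of Bahd1 itself were 844 to 1383 in Bahd1-WT and 0 to 14 in Bahd1-KO, so each library had the level of its label. Levels are given as CPM, the counts of a gene relative to the library size after TMM scaling. Markers of neurons, astrocytes, oligodendrocytes and microglia were present in all libraries, and the summed level of the 5 oligodendrocyte markers was 3620 to 3999 CPM in Bahd1-WT and 3940 to 6798 CPM in Bahd1-KO. The 4 markers of lung epithelium summed to 100.4, 24.4 and 2.15 CPM in Bahd1-WT replicates 1, 2 and 3 and to 0.437 to 1.4 CPM in Bahd1-KO. The part of these differences in the values below was not tested. Over all 23975 genes tested, edgeR's quasi-likelihood test called 2 genes, which is 0.00834%, at a Benjamini-Hochberg adjusted p under 0.05.

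The 50 genes did not move as a block. The log2 fold change of Bahd1-KO over Bahd1-WT was above 0 for 31 of them, beside 46.6% of all genes, and below 0 for 19, with a median of 0.10 against -0.06 over all genes tested, and it ran from -0.89 for Psme2b to 2.05 for Psmb10. No member passed an adjusted p of 0.05 in edgeR's quasi-likelihood test, nor with the replicate number as a block (0.0292% of all genes, and 15 members at an unadjusted p under 0.05, beside 21.8%), but 19 did once Bahd1-KO replicate 1 was left out, when 7113 genes of the table passed. At an unadjusted p under 0.05 the same test gave 16 members higher in Bahd1-KO, beside a background of 19.9% of all genes, and 3 lower (Psma3, Psma8 and Psme4), beside 12%, or 19 in all, beside 31.8%. At an edgeR adjusted p under 0.1 there were 14 members higher (14.7%) and 1 lower (4.77%). DESeq2 with its normal prior on fold changes, the tool of the study, called 14 members higher (background 14.3%) and 1, Psme4, lower (2.85%) at an adjusted p under 0.05. With a change of at least 2-fold added, it called 9 members higher, beside 9.61% of all genes: Psmb3, Psmb5, Psmb6, Psmb8, Psmb9, Psmb10, Psmd3, Psmd4 and Psmg3. It called 0 lower by that rule (0.909%). In 20 members every Bahd1-KO sample lay above every Bahd1-WT sample (background 20.6%), in 2 every one lay below (19.3%), and in 28 the groups overlapped.

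The summed level of the 50 genes was 3091, 3326 and 3386 CPM in the 3 Bahd1-WT brains and 3684, 3589 and 3089 CPM in the 3 Bahd1-KO brains. The groups overlapped, and their means differed by 0.08 on the log2 scale. In bulk tissue, a difference in the number of cells of a type and a difference in RNA per cell cannot be told apart.

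**Figure D1:**
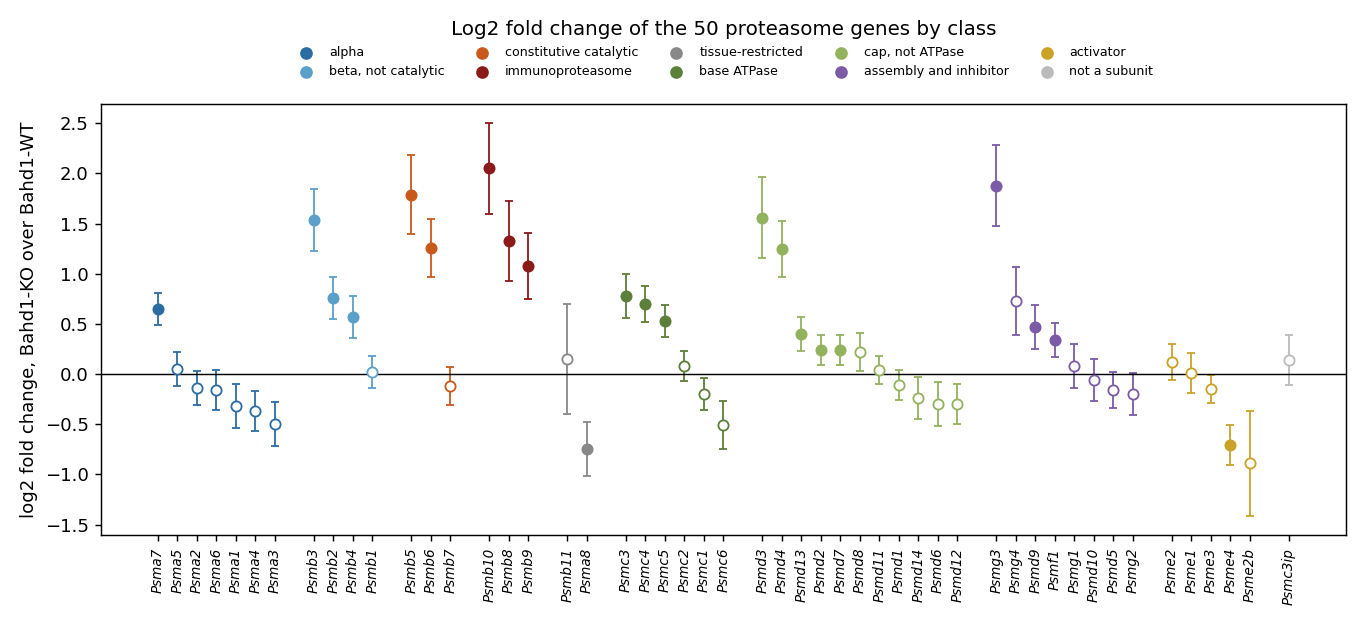
Log2 fold change of Bahd1-KO over Bahd1-WT (vertical axis) for the 50 proteasome genes, grouped and coloured by class, with bars for the standard error of edgeR's fit and filled points where the 3 Bahd1-KO and the 3 Bahd1-WT samples do not overlap. Each class except the immunoproteasome subunits holds members near 0 or below it, and Psmb10 stands highest at 2.05.

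Within most classes the members also differed in the GC content of their mRNA. To show this, the opening bases of the longest coding exon are printed below for the highest members of several classes, Psmb10, Psmb5 and Psmd3, and then for low ones, Psmc6, Psma3 and Psme4, with G and C in capitals. They were read from the GENCODE M21 transcripts of GRCm38, and each is 120 bases long, written 5′ to 3′ on the strand of the gene.
Psmb10: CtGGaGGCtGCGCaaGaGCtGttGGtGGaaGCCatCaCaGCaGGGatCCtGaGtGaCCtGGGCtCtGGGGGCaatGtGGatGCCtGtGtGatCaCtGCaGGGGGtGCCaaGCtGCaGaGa
Psmb5: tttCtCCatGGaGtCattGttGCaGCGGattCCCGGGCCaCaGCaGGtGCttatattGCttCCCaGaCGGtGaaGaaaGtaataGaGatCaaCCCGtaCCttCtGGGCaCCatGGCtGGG
Psmd3: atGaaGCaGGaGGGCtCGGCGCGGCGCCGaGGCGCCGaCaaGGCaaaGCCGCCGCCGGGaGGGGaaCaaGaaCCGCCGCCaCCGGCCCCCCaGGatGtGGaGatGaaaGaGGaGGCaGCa
Psmc6: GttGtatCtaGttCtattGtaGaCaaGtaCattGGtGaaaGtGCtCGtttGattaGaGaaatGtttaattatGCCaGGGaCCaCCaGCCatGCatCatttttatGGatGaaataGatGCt
Psma3: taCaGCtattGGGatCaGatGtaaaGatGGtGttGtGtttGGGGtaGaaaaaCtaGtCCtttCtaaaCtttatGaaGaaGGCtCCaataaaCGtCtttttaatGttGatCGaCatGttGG
Psme4: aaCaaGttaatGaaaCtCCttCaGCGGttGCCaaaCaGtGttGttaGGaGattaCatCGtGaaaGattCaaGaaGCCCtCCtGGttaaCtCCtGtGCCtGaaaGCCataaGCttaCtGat
The stretches lie at chr8:105936028-105936147 (minus strand, exon 7), chr14:54616702-54616821 (minus strand, exon 2), chr11:98682730-98682849 (plus strand, exon 1), chr14:45340773-45340892 (plus strand, exon 9), chr12:70983319-70983438 (plus strand, exon 3) and chr11:30810783-30810902 (plus strand, exon 10). G and C made up 60.8, 52.5 and 70.0% of the first 3 and 36.7, 36.7 and 42.5% of the last 3.

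Over the whole principal transcript (the transcript that the annotation marks as the main protein-coding one), GC content ran from 37.0% in Psmc6 to 58.3% in Psmd3. Across the 50 genes the log2 fold change had a Pearson correlation of 0.802 and a Spearman correlation of 0.877 with GC content, a description over genes measured in the same 6 libraries. Over the 13251 genes of the table above 1 on the log2 CPM scale, the Spearman correlation was 0.881, so that the relation was not particular to proteasome genes. Of the 17 members with the lowest GC content, 37.0 to 47.9%, 15 had a log2 fold change below 0, with a median of -0.24. Of the 17 with the highest, 52.7 to 58.3%, all had one above 0, with a median of 1.08. The 16 in between had a median of 0.15.

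To set this trend aside, each library received an offset per gene, read from a smooth curve of expression against GC content and transcript length. Under the offset the Spearman correlation with GC content over the members was 0.316, and the 3 medians became 0.17, 0.29 and 0.42, in the same order of GC content. The median log2 fold change of the 50 genes became 0.29 and that of all genes 0.12, after a shift of the whole table by 0.17. Now 40 members were above 0 and 10 below, beside 63% of all genes above 0. No member passed an adjusted p of 0.05, which 5 genes of the table (0.0209%) did, while 24 members were higher at an unadjusted p under 0.05 in edgeR (background 18.4%) and 1, Psme1, was lower (5.69%). The groups did not overlap in 28 members higher in Bahd1-KO (21.9%) and in 2 lower (7.2%). The direction of 19 members turned with the offset. Whether the GC trend arose in the tissue or in the libraries was not tested.

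**Figure D2:**
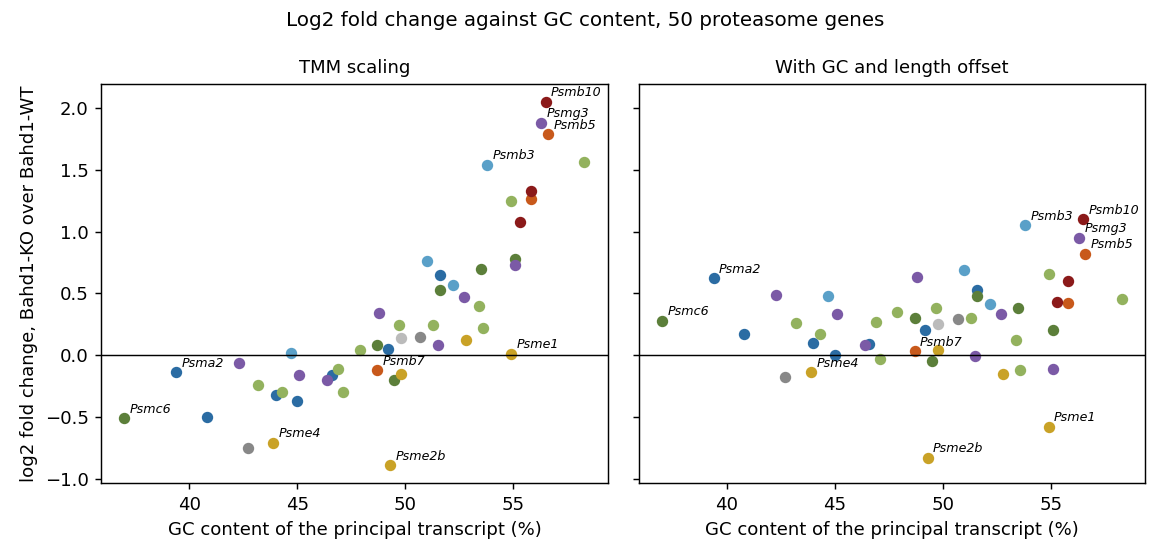
Log2 fold change of Bahd1-KO over Bahd1-WT against the GC content of the principal transcript in percent for the 50 proteasome genes, with TMM scaling alone (left) and with the GC and length offset (right), coloured by class as in the plot by class. On the left Psmc6, lowest in GC content, lies at -0.51 and Psmb10, near the upper end, at 2.05, and on the right 40 of the 50 lie above 0.

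Among the catalytic subunits, 5 of 6 were higher in every Bahd1-KO brain than in any Bahd1-WT brain, beside 20.6% of all genes, and the exception was Psmb7. The median GC content of the 6 was 55.8%, and with the offset 3 of them were higher with groups apart, beside 21.9% of all genes. Psmb10, the immunoproteasome subunit with trypsin-like activity, had 4.23, 2.90 and 3.74 CPM in the Bahd1-WT brains (replicates 1, 2 and 3, here and below) and 8.0, 27.3 and 9.76 CPM in the Bahd1-KO brains. The groups did not overlap, and Bahd1-KO replicate 2 lay far above all other samples. The log2 fold change was 2.05 (standard error 0.45, edgeR adjusted p = 0.0634), a 4.15-fold difference, and without Bahd1-KO replicate 2 it was 1.29 (edgeR adjusted p = 0.0501). With that library left out, edgeR called 0 members at an adjusted p under 0.05 in either direction, beside 0.00868% of genes each way.

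Psmb5 carries the chymotrypsin-like site of the standard core and is the main target of proteasome inhibitor drugs. It had 5.03, 2.74 and 4.04 CPM in Bahd1-WT and 8.27, 21.7 and 10.8 CPM in Bahd1-KO. The order of the Bahd1-KO samples was that of Psmb10, with replicate 2 highest. The log2 fold change was 1.79 (standard error 0.39, edgeR adjusted p = 0.0634), and 1.28 without Bahd1-KO replicate 2.

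Psmb6, the subunit with caspase-like activity, had 41.1, 27.3 and 37.4 CPM in Bahd1-WT and 62.0, 123.1 and 67.5 CPM in Bahd1-KO (log2 fold change 1.26, standard error 0.29, edgeR adjusted p = 0.0634). Psmb7, the trypsin-like subunit of the standard core, had 126.5, 149.2 and 155.2 CPM in Bahd1-WT and 166.3, 118.2 and 112.2 CPM in Bahd1-KO. The Psmb7 groups overlapped on both sides, at a log2 fold change of -0.12 (standard error 0.19). Psmb6 and Psmb5 were 2.39-fold and 3.46-fold higher, or 1.34-fold and 1.77-fold under the offset, where Psmb7 was at 1.02-fold. An offset from the longest transcript of each gene gave 2.03-fold for Psmb6, 1.72-fold for Psmb5 and 1.42-fold for Psmb7. The mRNA of Psmb7 holds 48.7% GC, against 55.8% for Psmb6 and 56.6% for Psmb5. Its exons overlap those of Nek6 on the opposite strand by 405 bases.

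The remaining immunoproteasome subunits were low in all brains. Psmb8 had 1.64, 1.04 and 0.736 CPM in Bahd1-WT and 1.95, 4.33 and 2.32 CPM in Bahd1-KO (log2 fold change 1.33, standard error 0.40, edgeR adjusted p = 0.0721). Psmb9 had 0.688, 0.599 and 0.464 CPM in Bahd1-WT and 0.782, 1.66 and 1.24 CPM in Bahd1-KO (log2 fold change 1.08, standard error 0.33, edgeR adjusted p = 0.0755). In both genes the lowest Bahd1-KO value lay only a little above the highest Bahd1-WT value. The counts behind Psmb9 were 34 to 158 per library, and its exons share 212 bases with Tap1 on the opposite strand, so that its value depends on how strand was treated in counting.

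The 3 immunoproteasome genes together gave 6.56, 4.54 and 4.94 CPM in Bahd1-WT and 10.7, 33.3 and 13.3 CPM in Bahd1-KO. With the GC and length offset the log2 fold changes were 1.1 for Psmb10, 0.60 for Psmb8 and 0.43 for Psmb9, and only the groups of Psmb10 then stayed apart. Without the offset, the summed level of the 6 blood leukocyte markers was lower in Bahd1-KO, 3.89 to 9.14 CPM against 11.4 to 14.1. That of the 5 microglia markers overlapped, 139 to 179.9 against 119.8 to 163.4 CPM. With the offset 5 of the 6 leukocyte markers were below 0, but only S100a8 (-1.07) had groups apart, beside 7.2% of all genes lower. Ptprc went from -0.86 to -0.22, with overlapping groups. Cd3e and Ms4a1, markers of T and B cells, had 0 to 19 counts per library. The part of these cells in the immunoproteasome values was not tested.

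**Figure D3:**
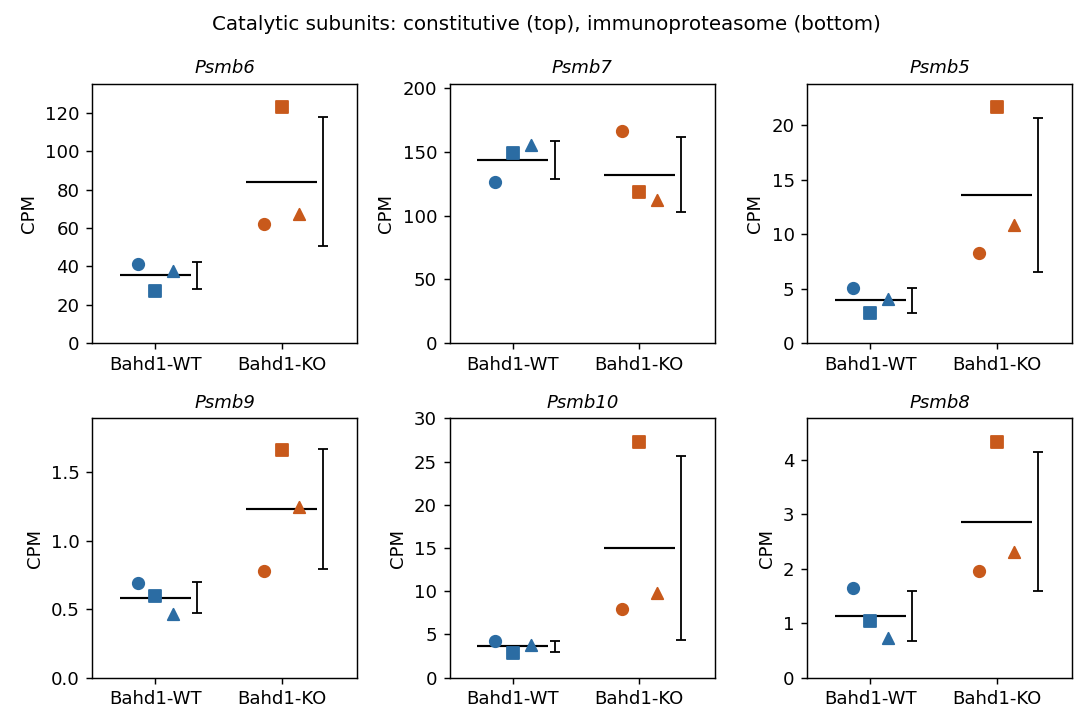
CPM of the constitutive catalytic subunits (top row) and of the immunoproteasome subunits that take their places (bottom row) in the 3 Bahd1-WT and 3 Bahd1-KO brains, with circles, squares and triangles for replicates 1, 2 and 3, a line at the mean and a bar for the SD. Bahd1-KO replicate 2 is the highest sample in each panel except that of Psmb7, where the groups overlap.

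At the level of mRNA, the 2 genes of each pair can be compared as a ratio within a library, which does not depend on scaling between libraries. Whether subunits were exchanged in the particle itself was not tested. For every 100 counts of Psmb7 there were 3.34, 1.94 and 2.41 counts of Psmb10 in Bahd1-WT and 4.81, 23.1 and 8.69 in Bahd1-KO. The groups did not overlap, and the log2 ratio was 1.98 higher in Bahd1-KO (exact two-sided permutation p = 0.1, the smallest 3 samples against 3 allow, and 0.3 after adjustment over the 3 ratios). Without Bahd1-KO replicate 2 the difference was 1.37. The offset brought the difference over all samples to 1.01, with the groups still apart, and the offset from longest transcripts to 0.50. For every 100 counts of Psmb6 there were 1.68, 2.19 and 1.24 counts of Psmb9 in Bahd1-WT and 1.26, 1.35 and 1.84 in Bahd1-KO. For every 100 counts of Psmb5 there were 32.6, 37.9 and 18.2 counts of Psmb8 in Bahd1-WT and 23.6, 20 and 21.4 in Bahd1-KO. These ratios overlapped between the genotypes, with log2 differences of -0.18 (exact two-sided permutation p = 0.7) and -0.39 (exact two-sided permutation p = 0.4). Of the 3 pairs, Psmb10 and Psmb7 differ most in GC content, 56.5% against 48.7%.

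**Figure D4:**
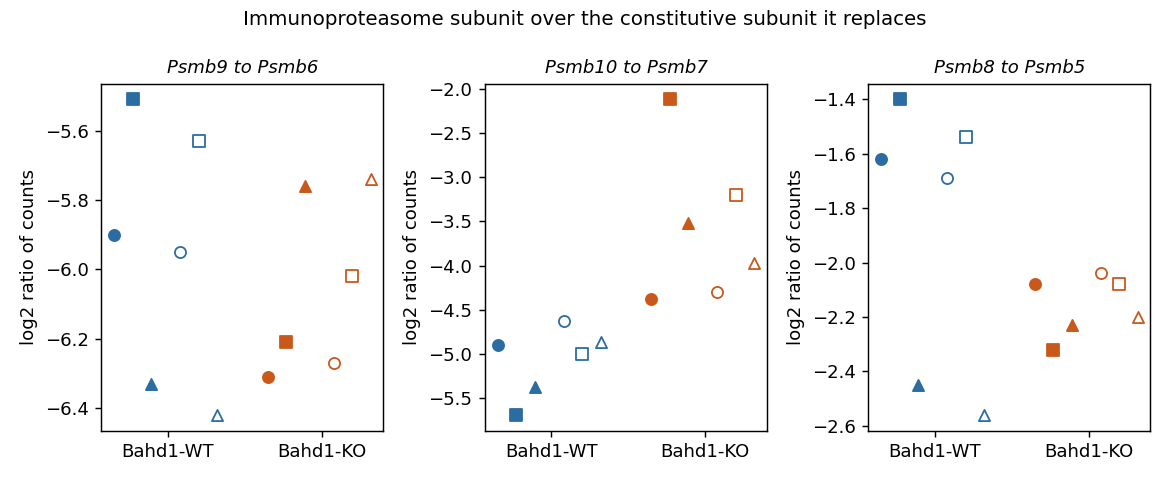
Log2 ratio of the counts of each immunoproteasome subunit to those of the constitutive subunit it replaces, in each of the 3 Bahd1-WT and 3 Bahd1-KO brains, with filled symbols for counts as deposited and open symbols after the GC and length offset (circles, squares and triangles are replicates 1, 2 and 3). The ratio of Psmb10 to Psmb7 lies higher in all 3 Bahd1-KO brains, from -4.38 to -2.12 against -5.69 to -4.90, and the other ratios overlap.

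Of the 7 alpha subunits that form the outer rings, 2 lay above 0 and 5 below. Psma7 was the highest, with 45.8, 43.9 and 45.1 CPM in Bahd1-WT and 64.1, 82.7 and 64.7 CPM in Bahd1-KO (log2 fold change 0.65, standard error 0.16, edgeR adjusted p = 0.0634), and its groups did not overlap. Psma3 was the lowest, with 96.3, 112.7 and 106.9 CPM in Bahd1-WT and 99.8, 58.1 and 66.0 CPM in Bahd1-KO (log2 fold change -0.50, standard error 0.22, edgeR adjusted p = 0.153). In Psma3, Bahd1-KO replicate 1 lay within the range of Bahd1-WT and the other Bahd1-KO samples below it. Psma5 was near 0 at 0.05, and Psma1, Psma2, Psma4 and Psma6 had log2 fold changes of -0.32, -0.14, -0.37 and -0.16, all with overlapping groups. Under the offset the 7 alpha subunits were at or above 0, from 0.00 for Psma4 to 0.62 for Psma2, while Psma7 stood at 0.53. With the offset from longest transcripts Psma7 turned to -0.27 and Psma4 stood at -0.07. The median of the 7 was then 0.03, against 0.17 with the principal transcripts.

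Among the beta subunits without a cutting site, Psmb3 had 9.999, 6.19 and 7.62 CPM in Bahd1-WT and 15.4, 32.6 and 21.5 CPM in Bahd1-KO. The groups were well apart, and the log2 fold change was 1.54 (standard error 0.31, edgeR adjusted p = 0.0634), with 1.05 under the offset and 1.22 without Bahd1-KO replicate 2. Psmb2 and Psmb4 had log2 fold changes of 0.76 and 0.57, and their groups did not overlap, though in Psmb4 the nearest samples had 50.63 and 50.61 CPM, and Psmb1 was level at 0.02 (standard error 0.16). The subunits of a core are needed in equal numbers, but the mRNAs of its 14 constitutive subunits had log2 fold changes from -0.50 to 1.79. Their summed level was 956.5, 1057 and 1084 CPM in Bahd1-WT and 1206, 1081 and 923.1 CPM in Bahd1-KO. That sum overlapped between the genotypes. With the offset, all 14 lay at or above 0, with a median of 0.42, beside 63% of all genes above 0. Of these 14, 8 were higher at an unadjusted p under 0.05 in edgeR, beside 18.4%. With the offset from longest transcripts the median was 0.20 (0.09 over all genes), and Psma4 (-0.07) and Psma7 (-0.27) lay below 0. There 6 of the 14 were higher by the same threshold, beside 4190 of 23975 genes.

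Psma8 and Psmb11, the subunits of the cores of testis and thymus, were low in all brains, and Psmb11 was near the floor of 3 counts. Psma8 had 44 to 76 counts per library in Bahd1-WT and 22 to 38 in Bahd1-KO, or 0.831, 0.810 and 0.600 CPM against 0.506, 0.399 and 0.432 CPM (log2 fold change -0.75, standard error 0.27, edgeR adjusted p = 0.105). The groups did not overlap, but did so under the offset, at -0.18. Psmb11 had 4 to 19 counts per library, with overlapping groups.

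Of the 6 ATPases of the cap, 4 lay above 0 and 2 below. Psmc3, Psmc4 and Psmc5 were higher in every Bahd1-KO brain than in any Bahd1-WT brain (20.6% of all genes), with log2 fold changes of 0.78, 0.70 and 0.53 (edgeR adjusted p = 0.0682, 0.0638 and 0.0724). Psmc3 was the highest, with 82.2, 63.4 and 85.6 CPM in Bahd1-WT and 107.4, 174.8 and 114.8 CPM in Bahd1-KO. Psmc6 was the lowest, with 166.9, 213.6 and 180.1 CPM in Bahd1-WT and 179.5, 94.6 and 120.2 CPM in Bahd1-KO (log2 fold change -0.51, standard error 0.24, edgeR adjusted p = 0.177), and its groups overlapped through Bahd1-KO replicate 1. Psmc1 and Psmc2 had log2 fold changes of -0.20 and 0.08. Their products form a single ring. Under the offset Psmc6 turned to 0.28 and 5 of the 6 were above 0 (63% of all genes), between 0.20 and 0.48, with Psmc1 at -0.05. With the offset from longest transcripts these 5 ran from 0.13 for Psmc3 to 0.73 for Psmc2, with Psmc1 at -0.14.

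Of the 11 other cap subunits, 7 were above 0 and 4 below. Psmd3, a scaffold of the lid, had 32.5, 22.6 and 29.3 CPM in Bahd1-WT and 41.9, 140.1 and 66.8 CPM in Bahd1-KO. The log2 fold change of 1.56 (standard error 0.40, edgeR adjusted p = 0.0634) became 0.95 without Bahd1-KO replicate 2, the highest sample by far, and 0.45 under the offset. Psmd4, a receptor for ubiquitin chains, had 41.9, 27.1 and 30.3 CPM in Bahd1-WT and 57.3, 110.9 and 67.7 CPM in Bahd1-KO (log2 fold change 1.25, standard error 0.28, edgeR adjusted p = 0.0634, and 0.66 under the offset). Psmd14, the enzyme that cuts ubiquitin off the substrate, stood at -0.24 (standard error 0.21) with overlapping groups, and at 0.26 under the offset with groups apart. Psmd6 and Psmd12, both of the lid, were lowest at -0.30. Psmd1 and Psmd2, the large scaffolds of the base, stood at -0.11 and 0.24, and Psmd7, Psmd8, Psmd11 and Psmd13 between 0.04 and 0.40. The groups of Psmd2, Psmd7 and Psmd13 did not overlap. Under the offset 9 of the 11 were above 0 (63% of all genes) and 2 below, and 7 were higher with groups apart (21.9%). Psmd1 then turned to 0.27, Psmd12 to 0.17 and Psmd8 to -0.12.

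Of the 8 assembly chaperones and inhibitor genes, 5 lay above 0 and 3 below. Psmg3 had 0.973, 0.794 and 0.614 CPM in Bahd1-WT and 1.61, 4.66 and 2.49 CPM in Bahd1-KO, a log2 fold change of 1.88 (standard error 0.40, edgeR adjusted p = 0.0634), second to Psmb10 among all members. Under the offset it was 0.95, below Psmb10 and Psmb3. That order depended on the transcript chosen. The offset from longest transcripts gave 1.91 for Psmg3, above Psmb3 (1.59) and Psmb10 (1.05). Its partner in the assembly of alpha rings, Psmg4, had a log2 fold change of 0.73 (-0.11 under the offset), and the partners Psmg1 and Psmg2 had 0.08 and -0.20, all with overlapping groups. Psmd5, Psmd9 and Psmd10, which guide assembly of the base, stood at -0.16, 0.47 and -0.06, and Psmf1, an inhibitor of the core, at 0.34, with the groups of Psmd9 and Psmf1 apart. Under the offset 6 of the 8 were above 0, beside 63% of all genes, and 5 were higher with groups apart, beside 21.9%. Psmd5 then turned to 0.33, Psmd10 to 0.49 and Psmg2 to 0.08, and Psmg1 to -0.01. Psmg3 shares 280 exon bases with Gm26938 on its own strand, which had 0 counts in all libraries.

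Among the activators, Psme4 was the one member of all 50 that was lower at an edgeR adjusted p under 0.1. Psme4, a large cap that acts without ATP and is known for the removal of acetylated histones, had 97.6, 111.3 and 84.4 CPM in Bahd1-WT and 72.6, 46.6 and 59.8 CPM in Bahd1-KO. No Bahd1-KO brain reached the Bahd1-WT range, and the log2 fold change was -0.71 (standard error 0.20, edgeR adjusted p = 0.0671). Its mRNA holds 43.9% GC, and with the offset the value was -0.14 (edgeR adjusted p = 0.455) with overlapping groups. Psme1 and Psme2, which form an activator induced by interferon together with the immunoproteasome subunits, stood at 0.01 (standard error 0.20) and 0.12 (standard error 0.18). Psme1 had 28.2, 29.2 and 34.4 CPM in Bahd1-WT and 30.4, 37.3 and 24.8 CPM in Bahd1-KO. Under the offset Psme1 became the lowest well-expressed member, at -0.58 (edgeR adjusted p = 0.067) with groups that did not overlap, at a GC content of 54.9%. Psme3, the nuclear activator, had -0.15. Psme2b, a retrocopy 99.4% identical to Psme2 over 794 bases, had 4 to 12 counts per library, and its value of -0.89 (standard error 0.52) is uncertain. Psmc3ip, which shares its symbol with the ATPases but is a meiotic recombination factor, had 0.14.

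Levels can be compared between genes per kb of principal transcript. In Bahd1-WT the highest member was Psmb7 with 123.8 ± 13.03 CPM per kb (SD, n = 3), followed by Psma6 with 118.7 ± 15.3 and Psmc1 with 116.0 ± 7.74, which did not differ beyond their spread. The alpha subunits ran from 118.7 for Psma6 to 23.9 for Psma5, and Psmb5, at 4.38 ± 1.28, was the lowest of the 14 constitutive core subunits. In Bahd1-KO Psmb5 stood at 15.1 ± 7.91 and Psmb6 at 105.5 ± 42.4 CPM per kb, against 44.2 ± 8.904 for Psmb6 in Bahd1-WT. The immunoproteasome subunits were at the low end, with 2.76, 0.699 and 0.432 CPM per kb for Psmb10, Psmb8 and Psmb9 in Bahd1-WT and 11.5, 1.76 and 0.908 in Bahd1-KO. Transcript lengths come from the annotation, so the order between genes is approximate.

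**Figure D5:**
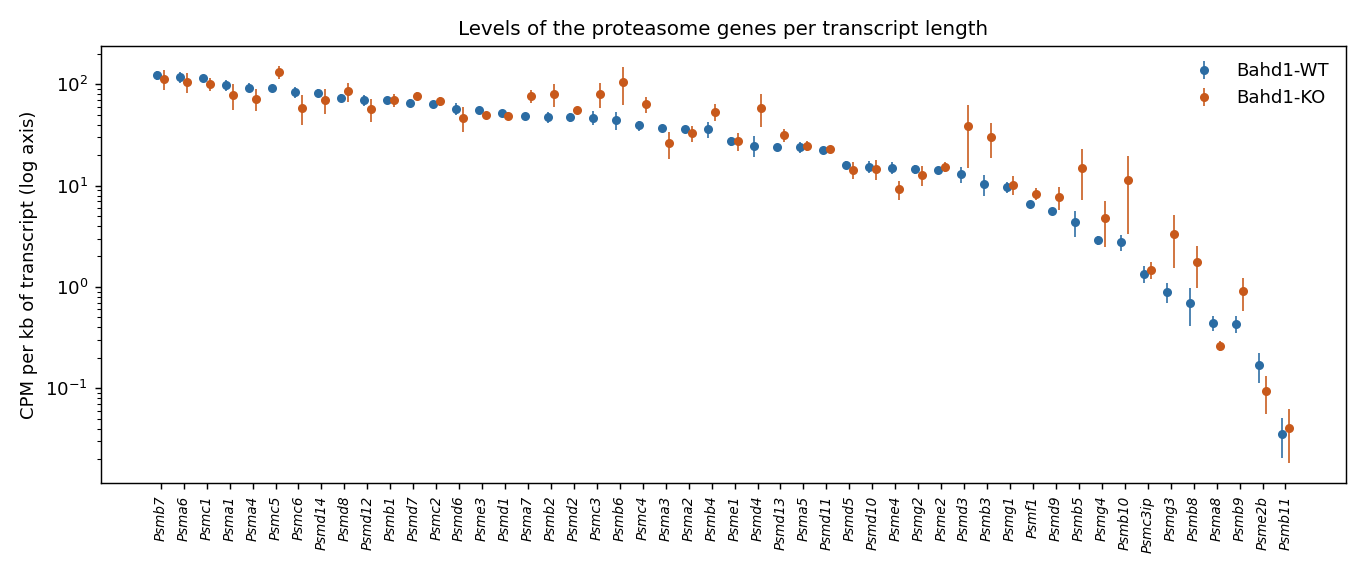
Level of each of the 50 proteasome genes in CPM per kb of principal transcript (log axis), ordered by the Bahd1-WT mean, with points for the means of 3 Bahd1-WT and 3 Bahd1-KO brains and bars for the SD. Psmb7 is highest in Bahd1-WT at 123.8, and the immunoproteasome subunits lie at 2.76 and below.

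Of the 50 members, 42 matched a promoter window in the RefSeq table (GRCm38.p6). The 250 bases before the start were searched on both strands for TGACNNNGC, the core of the antioxidant response element that factors such as NFE2L1, an activator of proteasome genes, recognise. It was found in 5 of the 42 members (11.9%) and in 11.5% of all 27025 genes of the table. The interferon-stimulated response element, searched as GAAA, any 2 bases and GAAA, was found in 3 members (7.14%) and 3.46% of all genes, TTCNNNGAA, the gamma-activated site, in 2 (4.76%) and 8.13%, and CCAAT in 15 (35.7%) and 37.5%. No matches of different motifs overlapped in the members, and a match is only a run of letters. The constitutive catalytic subunits Psmb5 and Psmb6 both held TGACNNNGC close to the start, and Psmb10 held none of the 4 motifs in its 250 bases. Their upstream bases outside annotated exons are printed 5′ to 3′ on the strand of the gene, with motif matches in capitals.
Psmb5: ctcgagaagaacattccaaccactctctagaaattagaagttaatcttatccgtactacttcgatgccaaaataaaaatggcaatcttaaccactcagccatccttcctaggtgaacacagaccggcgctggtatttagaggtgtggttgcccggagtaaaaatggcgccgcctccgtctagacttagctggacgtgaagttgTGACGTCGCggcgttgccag
Psmb6: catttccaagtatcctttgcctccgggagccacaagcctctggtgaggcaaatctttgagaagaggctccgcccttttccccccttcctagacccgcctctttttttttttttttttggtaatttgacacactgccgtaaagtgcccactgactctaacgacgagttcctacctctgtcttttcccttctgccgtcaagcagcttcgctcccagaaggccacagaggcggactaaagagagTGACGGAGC
Psmb10: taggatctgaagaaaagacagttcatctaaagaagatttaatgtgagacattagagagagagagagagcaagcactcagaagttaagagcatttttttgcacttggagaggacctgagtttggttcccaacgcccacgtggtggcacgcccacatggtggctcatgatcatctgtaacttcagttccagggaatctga
These are chr14:54618023-54618245 (minus strand), chr11:70525107-70525356 (plus strand) and chr8:105938445-105938642 (minus strand). The matches are TGACGTCGC from base -47 to -39 in Psmb5 and TGACGGAGC from -9 to -1 in Psmb6, counted back from the RefSeq start. Psmb8 held TTCCCAGAA from -97 to -89, and Psmb9 held CCAAT on the opposite strand from -8 to -4. The members with TGACNNNGC had log2 fold changes of 1.79 (Psmb5), 1.26 (Psmb6), 0.47 (Psmd9), -0.30 (Psmd12) and -0.51 (Psmc6), and under the offset 0.82, 0.42, 0.33, 0.17 and 0.28 in the same order.

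Genes that work with the proteasome were read from 4 lists, with Ddi2 in 2 of them. No gene of these lists passed an adjusted p of 0.05 in edgeR. Of 11 genes whose products bind the proteasome or help to build it, 1 was higher at an unadjusted p under 0.05 and 3 were lower (background 19.9 and 12%), with a median log2 fold change of -0.39. Under the offset 10 of the 11 were above 0, with a median of 0.23, and 5 were higher and 0 lower by that threshold (background 18.4 and 5.69%). Adrm1, a ubiquitin receptor of the cap, was highest, with 8.32, 7.19 and 6.71 CPM in Bahd1-WT and 11.5, 42.6 and 15.3 CPM in Bahd1-KO (log2 fold change 1.64, edgeR adjusted p = 0.065). Ube3a, a ubiquitin ligase, was lowest at -0.71 (edgeR adjusted p = 0.0866). Without Bahd1-KO replicate 2 the value of Adrm1 was 0.86, and the offset brought Adrm1 to 0.23 and Ube3a to 0.15.

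Of 15 genes of ubiquitin supply and delivery, 4 were higher and 0 lower at an unadjusted p under 0.05 (background 19.9 and 12%), with a median of 0.17. Ubb, which encodes linked copies of ubiquitin, had 125.1, 67.0 and 76.6 CPM in Bahd1-WT and 170.8, 501.9 and 265.6 CPM in Bahd1-KO (log2 fold change 1.80, edgeR adjusted p = 0.0634). Its groups did not overlap, and the offset left 1.34. Uba6, an activating enzyme of ubiquitin, was lowest at -0.37 and turned to 0.45 under the offset, where the median of the list was 0.19 and 5 genes were higher and 0 lower by the same threshold (background 18.4 and 5.69%).

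Of 14 genes that regulate transcription of proteasome genes, 3 were higher at an unadjusted p under 0.05 and 0 were lower (background 19.9 and 12%), with a median of 0.15. They were Nfe2l1 (0.69), Nfyc, a subunit of the factor that binds CCAAT (0.61), and Keap1, which holds NFE2L2 in check (0.83, the highest). With the offset Nfe2l1 stood at 0.28 and Keap1 at -0.12, both with overlapping groups, and Nfyc at 0.78 with groups apart. Ngly1, which processes NFE2L1, was lowest at -0.44 (0.14 under the offset). Under the offset the median was 0.13, with 4 higher and 1 lower by the same threshold, beside 18.4 and 5.69% of all genes. Irf1 and Nlrc5, through which interferon acts on immunoproteasome genes, had 0.32 and -0.22, with overlapping groups.

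Of 10 partners in class I antigen presentation, 3 were higher (Tap2, H2-K1 and H2-D1) and 1 lower (Erap1) at an unadjusted p under 0.05, beside 19.9 and 12% of all genes. Tap2, a peptide transporter encoded beside Psmb8 and Psmb9, had 2.33, 1.43 and 1.15 CPM in Bahd1-WT and 3.10, 11.9 and 5.20 CPM in Bahd1-KO (log2 fold change 2.05, edgeR adjusted p = 0.0634), with 1.35 without Bahd1-KO replicate 2 and 1.14 under the offset. Its partner Tap1 had 0.66 (-0.21 under the offset) with overlapping groups, B2m had -0.39, and Erap1, which trims peptides, was lowest at -0.53. Under the offset B2m turned to 0.14 and Erap1 to 0.15, while H2-K1 went from 1.04 to 0.24 and H2-D1 from 1.1 to 0.37, both with overlapping groups. There 2 genes of the list were higher, Tap2 and Canx (0.23), and 1 was lower, Tapbp (-0.65), at an unadjusted p under 0.05 in edgeR (background 18.4 and 5.69%).

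Near-identical copies in the annotation could take or give reads. A search of the principal transcripts against all transcripts, at 95% identity or more over 200 bases or more, found matches in other genes for 16 of the 50 members. The pseudogene copies of Psma3, Psma4, Psma5, Psmb3, Psmb5, Psmc1, Psmd2 and Psmd11 that the table lists each held at most 0.209% of the counts of their member. Among other kinds of genes, A730017L22Rik, a transcript 97.9% identical to the opposite strand of Psmd11 over 1501 bases, held 10.65% of the counts of Psmd11, and Gm609 held 0.491% of those of Psma3. Neighbouring genes on the opposite strand share exon bases with several members, among them Tap1 with Psmb9 (212 bases), Nek6 with Psmb7 (405), Sirt3 with Psmd13 (342), Mlx with Psmc3ip (385), Slc39a13 with Psmc3 (215), Gm20496 with Psmb8 (498), Gm26745 with Psmd9 (1849) and Htr2b with Psmd1 (252). Tap1 had 262.3%, Nek6 22.09%, Sirt3 50.74% and Mlx 1490% of the counts of the member they overlap. The values of these members are uncertain to the extent that reads from the other strand were counted. The counting options listed in the supplementary methods include none for reads that align to several places. How such reads were counted is not stated there.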

How the data were processed

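RNA-seq was made from one brain hemisphere of each of 3 Bahd1-WT and 3 Bahd1-KO mice, grouped by the labels. The authors trimmed reads with cutadapt 1.11, aligned them to GRCm38 and counted them per gene on exons with featureCounts 1.4.6-p3, and deposited raw counts without normalization or filter. STAR 2.5.0a is the aligner in the submitters' processing notes, while the supplementary methods also name Tophat2. The methods name a stranded kit and counting on the forward strand, but mix the settings of more than one run, so which strand setting made these counts is not certain, and genes that overlap others are uncertain. All 6 columns were used, and 0 columns came from elsewhere.

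Genes with at least 10 counts in all were tested with edgeR 4.0.16 (TMM, quasi-likelihood, genotype alone, Benjamini-Hochberg over 23975 genes) in R 4.3.3, and fold changes, standard errors and adjusted p-values are from this fit unless said otherwise. DESeq2 1.42.0 was an alternative. For the offset, splines in GC content (5 degrees of freedom) and log length (3) of the APPRIS principal transcript (GENCODE M21) were fitted to log2 CPM of 13251 genes in each library. The principal transcript was chosen after values from the longest transcripts had been seen, since these differ in GC content from the coding mRNA in several members. Ratios were tested by exact permutation. The scripts were tested on simulated data.

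The members follow a rule on gene names, but the gene family and the lists were chosen with earlier results of these data known. Named genes were the catalytic, tissue-restricted and activator genes, the highest and lowest of each class and list, and the 6 members turned by the offset with the largest fold change before it. Psmd14, Irf1 and other genes named besides were added for their function. Some genes of the lists are not reported here by name. Paaf1 was not analysed here. The labels do not name litters, and p-values measure the spread between these mice. Counting 3 reads as the floor gives 0.0315 to 0.069 CPM per library, for counting error only.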

Additional observations from a re-analysis of the deposited data

How the results depend on the processing

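Of 628 values of 37 named genes under the alternatives, 567 kept the direction of the reported value, 58 turned, and the remaining 3 kept their call at a value that rounds to 0. The number of members past an adjusted p of 0.05, 0 as reported, was 12 with total counts as library size in edgeR, 15 with DESeq2 with or without its prior, and 14 with a filter of at least 1 count. Leaving out 1 library gave 0 to 19, with 19 only without Bahd1-KO replicate 1, where 7113 genes of the table passed against 2 as reported. The table as a whole gave 2253 genes with total counts, 4107 and 4112 with DESeq2 with and without the prior, and 3611 with the filter of at least 1 count. The causes were not tested. The count at an unadjusted p under 0.05, 19 as reported, ran from 15 to 28 when 1 library was left out. The median log2 fold change of the members, 0.10 as reported, was -0.04 with upper-quartile factors, which moved the median of all genes by -0.14, and 0.29 with the GC and length offset, 0.28 with offset and replicate block and 0.20 with the offset from longest transcripts.

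The log2 ratio of Psmb9 to Psmb6 ran from -0.39 to 0.02 when 1 library was left out, with 0.02 without Bahd1-WT replicate 2. That of Psmb8 to Psmb5 ran from -0.70 to -0.18 and was 0.29 with the longest-transcript offset, and that of Psmb10 to Psmb7 ran from 1.37, without Bahd1-KO replicate 2, to 2.5 and was 1.01 with the offset and 0.50 with the longest-transcript offset.

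With the replicate number as a block, 0 members and 7 genes of the table (0.0292%) passed an adjusted p of 0.05, 15 members and 21.8% of all genes passed an unadjusted p of 0.05, and the log2 fold change of Psmb10 was 1.82 (edgeR adjusted p = 0.122). The numbers only name the samples: deviations of same-numbered samples correlated at -0.646, -0.66 and -0.139, so none correlated best with its own number.

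With the offset, the offset with replicate block and the offset from longest transcripts, in this order, the log2 fold change turned for Psmb7 0.03, 0.03 and 0.51, for Psme1 -0.58, -0.58 and -0.75, for Psme2 -0.15, -0.16 and -0.26, for Psma3 0.17, 0.17 and 0.10, for Psmc6 0.28, 0.28 and 0.20, for Erap1 0.15, 0.16 and 0.11, for Ube3a 0.15, 0.15 and 0.13, for Keap1 -0.12, -0.12 and -0.14, for Ngly1 0.14, 0.14 and 0.14, for Uba6 0.45, 0.46 and 0.41, for Psmg4 -0.11, -0.13 and -0.16 and for Psma1 0.10, 0.10 and 0.03. With the first and second of these only, it turned for Psme3 (0.04 and 0.04), Psmg2 (0.08 and 0.08), Psma4 (0 and 0) and Psmd12 (0.17 and 0.17), and with the last only for Psma7 (-0.27). The report gives the other turned members, apart from Psma6 (0.09). Upper-quartile factors turned Psme1 (-0.14), Psme2 (-0.02), Psmb1 (-0.12) and Psmc3ip (0). Leaving out 1 library gave values on both sides of 0 for Psmb11 (-0.15 to 0.52), Psme1 (-0.15 to 0.16), Psmb1 (-0.07 to 0.11) and Psmc3ip (-0.03 to 0.29), and the block brought Psme1 to 0.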
